A study of Mus musculus with 48 samples.

Results

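A set of 8 genes of the Nodal and Lefty signalling pathway was followed through RNA-seq and ribosome profiling (Ribo-seq) of mouse embryonic stem cells that had lost NRDE2, MTREX or CCDC174. The members were *Nodal*, *Gdf3*, *Tdgf1*, *Acvr2b*, *Foxh1*, *Smad7*, *Lefty1* and *Lefty2*, taken as the 8 of 55335 genes in both expression tables whose Ensembl identifiers carry these symbols in the GENCODE mouse annotation. The set was put together with results of these data known and was selected on, as far as is recorded, the expression of *Lefty1* in the first *Nrde2*-KO experiment, in which it stood among the genes with the largest decreases, so the values of that experiment are given without a test. NRDE2 is a nuclear protein that the study examined for its part in the splicing of weak 5′ splice sites, CCDC174 is a partner of NRDE2, and MTREX is the RNA helicase of the nuclear exosome.

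All cells were male mouse embryonic stem cells of a 129 × C57BL/6 hybrid background, carried an inducible Cre recombinase (Cre-ERT2), came from clonally picked lines and were grown in serum with LIF and 2 kinase inhibitors that hold cells in the naive state. In the first experiment, WT cells (the conditional *Nrde2* line without inducer) were compared with *Nrde2*-KO cells of that line (100 nM 4-hydroxytamoxifen, 4OHT, for 4 d), with *Nrde2*Δ*200* cells, which lack the first 200 amino acids of NRDE2, and with *Nrde2-D174R* cells, which carry a point mutation that weakens MTREX binding. The paper reports that the D174R protein was also less abundant than wild-type NRDE2, while the truncated protein reached a similar level. A second experiment repeated WT and *Nrde2*-KO, each without and with the translation inhibitor cycloheximide (CHX, 0.1 mg/ml for 4 h). *Mtrex*-KO cells (100 nM 4OHT for 3 d) were set against their uninduced conditional line, and *Ccdc174-dTAG* cells, in which an FKBP12F36V fusion of CCDC174 was degraded with 500 nM dTAG-13 for 24 h, against the same fusion line untreated, again without and with CHX. WT cells never received 4OHT, so that the effect of 4OHT and Cre cannot be told apart from that of the loss of either gene. Ribo-seq covered WT and *Nrde2*-KO. Each group held 2 libraries that the labels call replicates, without saying whether they came from separate cultures, which gave 28 RNA-seq and 4 Ribo-seq libraries.

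NODAL is a secreted ligand of the TGF-β family that signals through activin receptors, among them the type II receptor ACVR2B, and needs the membrane-anchored co-receptor TDGF1 (Cripto). Active receptors phosphorylate SMAD2 and SMAD3, which enter the nucleus and act with FOXH1 at target genes. Among those targets are *Nodal* itself and its secreted antagonists *Lefty1* and *Lefty2*, which close a negative feedback loop, while SMAD7 blocks the receptors from inside the cell. GDF3 is a related ligand made in pluripotent cells. In mouse embryonic stem cells the pathway is active and is known for its place in early axis formation and in the balance between pluripotency and mesendoderm.

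The 2 *Lefty* genes lie in tandem on the plus strand of chromosome 1 (GRCm38), *Lefty2* (ENSMUSG00000066652) at chr1:180893108-180899103 and *Lefty1* (ENSMUSG00000038793) at chr1:180935022-180938400, 35918 bases apart. *Nodal* (ENSMUSG00000037171) lies at chr10:61417972-61425338 on the plus strand. Since the study concerned weak 5′ splice sites, the 9 bases at each 5′ splice site of these genes are shown, 3 of the exon and 6 of the intron, as read from the genome. Capitals mark bases that differ from the most frequent base at that position over 146355 sites of genes expressed here, caggtaagt.
*Lefty1* intron 1, chr1:180935357-180935365: GaggtGagC
*Lefty1* intron 2, chr1:180936791-180936799: TaggtaTAG
*Lefty1* intron 3, chr1:180937252-180937260: TGggtaagC
*Lefty2* intron 1, chr1:180893431-180893439: GaggtGagC
*Lefty2* intron 2, chr1:180894379-180894387: TaggtaGgG
*Lefty2* intron 3, chr1:180894839-180894847: cGggtaGgC
*Nodal* intron 1, chr10:61418493-61418501: AaggtaGgC
*Nodal* intron 2, chr10:61423695-61423703: caggtaTgA
The first site of *Lefty1* and that of *Lefty2* have the same 9 bases. The second site of *Lefty1* matched 5 of the 9 most frequent bases, a score at or below which 17.3% of all sites fell. The other *Lefty* sites matched 6, which was also the median of all sites, and the *Nodal* sites matched 6 and 7. Over the 31 annotated sites of all 8 members, the median was 6 as well, and the lowest matches were those of 2 *Smad7* sites, each used by 1 annotated transcript, with 3 and 4 bases (0.597% and 2.22% of all sites at or below). *Gdf3* has a single intron in this annotation, with the site AGggtaagG at chr6:122609690-122609698 on the minus strand, and *Foxh1* has 2, of which the second, AaggtGGgA at chr15:76669223-76669231 on the minus strand, matched 5 bases. These matches describe the sequence only. Splicing of these introns was not measured here.

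The RNA-seq libraries held 28683644 to 36272309 reads in genes and the Ribo-seq libraries 3475051 to 5035940. *Nrde2* mRNA checked the labels of the second experiment, with 53.6 and 52.2 normalized CPM (read counts relative to a fixed library total, then scaled between libraries by the median ratio) in WT and 19.96 and 19.7 in *Nrde2*-KO, and *Mtrex* those of the *Mtrex* line, with 119 and 112 against 46.4 and 41.6. With CHX, *Nrde2* stood at 244 and 226 in WT and at 259 and 250 in the libraries labelled *Nrde2*-KO, so that its mRNA gave no check there. *Ccdc174* mRNA checks nothing, since the protein is what dTAG-13 removes. The summed level of 14 naive pluripotency markers ranged from 3545 to 6853 normalized CPM over the RNA-seq libraries with none of them at 0, and that of 7 fibroblast markers from 1.87 to 5.44. The 2 *Mtrex*-KO libraries differed from each other more than the replicates of any other group (chi-square per degree of freedom 98.4, against 5.80 to 42.9 in the other RNA-seq groups), and results that rest on 1 of them are given without it as well.

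In the 8 WT libraries without CHX, all members were expressed, and levels per kilobase of exon allow the genes to be set side by side. *Lefty2* had the highest median, 223 normalized CPM per kb (91.0 to 297), followed by *Tdgf1* with 125 (95.2 to 151), *Gdf3* with 67.3 (47.8 to 93.7) and *Nodal* with 54.6 (41.6 to 71.1). *Foxh1* had a median of 19.8 normalized CPM per kb (15.2 to 29.4), *Lefty1* of 13.8 (8.24 to 50.7), *Smad7* of 13.2 (10.8 to 17.7) and *Acvr2b* of 5.90 (4.55 to 8.12). The ranges of *Lefty2* and *Tdgf1*, of *Lefty2* and *Gdf3*, of *Gdf3* and *Nodal*, and of *Foxh1*, *Lefty1* and *Smad7* overlapped. That of *Lefty1* also overlapped those of *Nodal* and *Gdf3* at its upper end. *Lefty1* and *Lefty2* are close relatives, and 303 windows of 50 bases, the RNA-seq read length, occur in the exons of both (19.4% of the windows of *Lefty1* and 12.5% of those of *Lefty2*). Reads from those windows were not counted for either gene, since only uniquely mapped reads were kept, so that the levels per kb of both are too low. Of all windows, 80.6% occurred once in the genome for *Lefty1* and 84.6% for *Lefty2*. For *Tdgf1*, 82.7% of the windows occurred once in the genome, and part of the rest lies in the pseudogene *Tdgf1-ps1*.

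Across the 14 RNA-seq groups, *Lefty1* varied most. Its group means ran from 1.70 ± 0.35 normalized CPM (SD, n = 2) in *Ccdc174-dTAG* cells with CHX to 68.2 ± 29.6 in WT of the second experiment, a 40.1-fold span. Of the 13 neighbouring pairs of groups in the order of *Lefty1* levels, 6 overlapped in their libraries, so that the order of neighbours is not firm. Overlap did not follow the size of a step. *Nrde2-D174R* (mean 11.1) and *Nrde2*-KO of the second experiment (11.6) did not overlap, whereas *Nrde2*-KO with CHX (4.51) and *Mtrex*-KO (6.03) did. *Lefty2* ran from 59.1 ± 6.50 in *Mtrex*-KO to 713 ± 86.4 in the untreated *Ccdc174* line, a 12.1-fold span with 8 overlapping pairs. *Nodal* covered a 3.03-fold span, from 63.0 ± 1.68 in *Ccdc174-dTAG* with CHX to 191 ± 17.9 in *Nrde2*-KO of the second experiment, with 6 overlapping pairs. The remaining members spanned 4.43-fold (*Smad7*), 3.38-fold (*Foxh1*), 3.02-fold (*Gdf3*), 2.75-fold (*Tdgf1*) and 2.01-fold (*Acvr2b*), with 8 to 11 overlapping pairs each. WT was itself not constant, as *Lefty1* had 15.0 and 17.96 normalized CPM in WT of the first experiment and 47.3 and 89.1 in that of the second. Groups were therefore tested within an experiment, and across experiments only as differences between their effects.

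**Figure D1:**
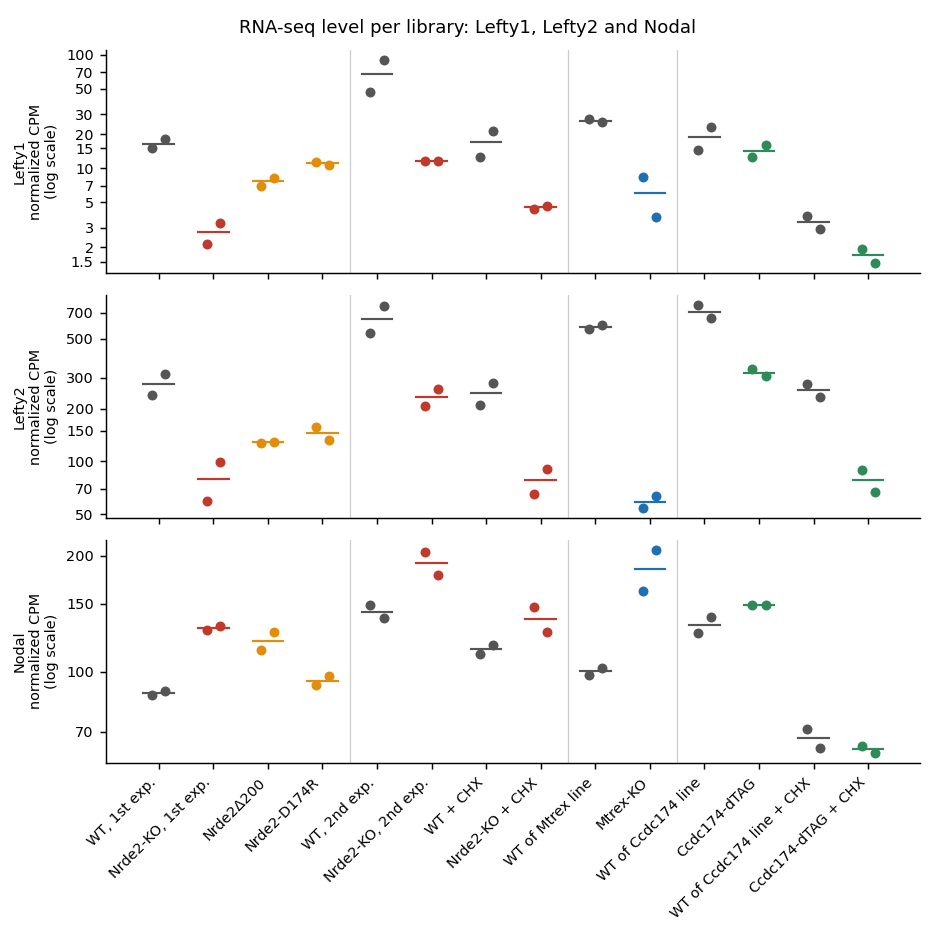
Normalized CPM (log scale) of *Lefty1*, *Lefty2* and *Nodal* in each RNA-seq library, by group. Points are libraries, bars are means of 2 libraries, and grey lines separate the experiments. Both *Lefty* genes sit lower and *Nodal* higher in *Nrde2*-KO and *Mtrex*-KO than in the WT libraries of the same experiment, and with CHX the *Lefty1* level of the *Ccdc174* line is 1.46 to 3.76.

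In the first experiment, the 2 antagonist genes were lower and the ligand gene *Nodal* was higher in *Nrde2*-KO than in WT. *Lefty1* had 15.0 and 17.96 normalized CPM in WT and 2.16 and 3.31 in *Nrde2*-KO, 5.69-fold lower. *Lefty2* had 238 and 315 in WT and 59.7 and 99.2 in *Nrde2*-KO, 3.54-fold lower. *Nodal* had 87.2 and 89.1 in WT and 128 and 132 in *Nrde2*-KO, 1.47-fold higher. The libraries of WT and *Nrde2*-KO did not overlap for these 3 genes, which is a description only. The set was selected on *Lefty1* in this experiment, and no share of all genes without overlap is given. The related ligand *Gdf3* went from 116 and 135 to 70.5 and 78.9, and the co-receptor *Tdgf1* from 300 and 325 to 143 and 180. *Acvr2b*, *Foxh1* and *Smad7* differed by log2 fold changes of −0.31, −0.18 and 0.10.

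In both mutants the *Lefty* genes lay between WT and *Nrde2*-KO. *Lefty1* had 7.02 and 8.27 normalized CPM in *Nrde2*Δ*200* against 11.4 and 10.7 in *Nrde2-D174R*, so that all 4 libraries lay between those of WT and *Nrde2*-KO. *Lefty2* had 128 and 130 in *Nrde2*Δ*200* against 158 and 133 in *Nrde2-D174R*, again with all 4 libraries in between. *Nodal* had 114 and 127 in *Nrde2*Δ*200*, near *Nrde2*-KO, while *Nrde2-D174R* had 92.4 and 97.5, near WT. On the log2 scale the differences from WT were −1.08 for *Lefty1*, −1.09 for *Lefty2* and 0.45 for *Nodal* in *Nrde2*Δ*200*. Those of *Nrde2-D174R* were −0.56, −0.91 and 0.11 in the same order. These 2 sets and that of *Nrde2*-KO share the same WT libraries, whose own spread moved the *Lefty2* value of *Nrde2-D174R* between −1.12 and −0.71 when 1 of them was left out. Marker genes of the 2-cell-like state, a rare totipotent-like state of these cultures, summed to 2.47 to 3.43 normalized CPM in WT, 24.8 to 36.7 in *Nrde2*-KO, 16.3 to 21.1 in *Nrde2*Δ*200*, against 2.12 to 3.73 in *Nrde2-D174R*, and their part in these differences was not tested.

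The direct comparison of the mutants asked whether cells with the truncation of the N-terminal region differ from those with the point mutation in it. The mutants are separate lines and, by the paper's account, differ in NRDE2 protein level. Neither can be told apart from the mutation here, nor can the line in the values of a mutant against WT. The threshold for a change used throughout was an adjusted p below 0.01 in limma. None of the 8 members differed between *Nrde2*Δ*200* and *Nrde2-D174R* by it (4.24% of all genes tested did), and edgeR and DESeq2 called none. At an unadjusted p below 0.05 there was 1. Shares of all genes given here and below are for the adjusted threshold, not for that one. The member with the smallest p was *Nodal*, 0.34 higher on the log2 scale in *Nrde2*Δ*200* (SE 0.10, adjusted p = 0.042), whose libraries did not overlap. Fitted on the libraries of these 2 groups alone, the *Nodal* difference passed (adjusted p = 0.0056). The *Lefty1* difference was −0.52 (SE 0.32, adjusted p = 0.33) and that of *Lefty2* −0.17 (SE 0.20, adjusted p = 0.64).

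The second experiment, whose libraries are not known to have entered the choice of the members, compared *Nrde2*-KO with WT again. Both *Lefty* genes, *Gdf3* and *Foxh1* fell and *Nodal* rose, so that 5 of 8 members changed, where 18.7% of all 14889 genes tested changed. The 4 that fell compare with 11.3% of all genes and the 1 that rose with 7.44%. The median log2 fold change of the 8 members was −0.56, against 0.01 over all genes.

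*Lefty1* had 47.3 and 89.1 normalized CPM in WT and 11.5 and 11.7 in *Nrde2*-KO. The 2 WT libraries lay far apart, yet both were well above the *Nrde2*-KO libraries. The decrease was 5.51-fold (−2.46 on the log2 scale, SE 0.32, adjusted p = 1.7e-05). *Lefty2* had 536 and 762 in WT and 207 and 258 in *Nrde2*-KO, with no overlap (−1.47 on the log2 scale, SE 0.20, adjusted p = 3.3e-05). *Nodal*, the ligand that both proteins antagonise, had 149 and 138 in WT and 204 and 179 in *Nrde2*-KO (0.41 on the log2 scale, SE 0.10, adjusted p = 0.0052). Its rise was the smallest of the changes. Per kb, the summed *Lefty* level was 3.26 to 5.22 times that of *Nodal* in WT and 0.883 to 1.24 times in *Nrde2*-KO.

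Among the other members, *Gdf3* fell from 187 and 214 to 106 and 119 normalized CPM (−0.83 on the log2 scale, SE 0.12, adjusted p = 5.6e-05). *Foxh1*, the DNA-binding partner of the SMAD proteins, fell from 28.4 and 36.8 to 21.6 and 19.3 (−0.65, SE 0.16, adjusted p = 0.0043). The groups overlapped for neither gene. The co-receptor *Tdgf1* had 317 and 329 in WT and 249 and 294 in *Nrde2*-KO (−0.26, adjusted p = 0.49), and the receptor *Acvr2b* 31.9 and 30.5 against 20.8 and 24.1 (−0.47, adjusted p = 0.048). The groups did not overlap for either, and neither passed the test. *Smad7*, the inhibitor inside the cell, had 61.7 and 70.0 in WT and 58.5 and 66.6 in *Nrde2*-KO (−0.07, adjusted p = 0.7).

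All 8 tested markers of the 2-cell-like state rose in *Nrde2*-KO of the second experiment, where 7.44% of all genes rose and 11.3% fell. These markers summed to 7.29 to 7.31 normalized CPM in WT and 104 to 112 in *Nrde2*-KO. Naive markers summed to 6443 to 6512 in WT and 5751 to 5969 in *Nrde2*-KO, and 1 of 14 fell. Markers of primed pluripotency, the later epiblast-like state, summed to 345 to 445 in WT and 253 to 278 in *Nrde2*-KO, and 1 of 6 tested fell. Markers of primitive endoderm summed to 163 to 177 and 119 to 138, with 2 of 6 tested higher and 1 lower. The part of any of these in the *Lefty* and *Nodal* values was not tested, and in bulk RNA fewer cells that express a gene cannot be told apart from less RNA per cell. The calls of *Nodal* and *Foxh1* were the less stable ones. Without WT replicate 2 they stood at 0.36 (adjusted p = 0.061) and −0.47 (adjusted p = 0.083), without *Nrde2*-KO replicate 1 at 0.32 (adjusted p = 0.066) and −0.74 (adjusted p = 0.012), *Nodal* without WT replicate 1 at 0.47 (adjusted p = 0.014) and *Foxh1* without *Nrde2*-KO replicate 2 at −0.57 (adjusted p = 0.049).

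**Figure D2:**
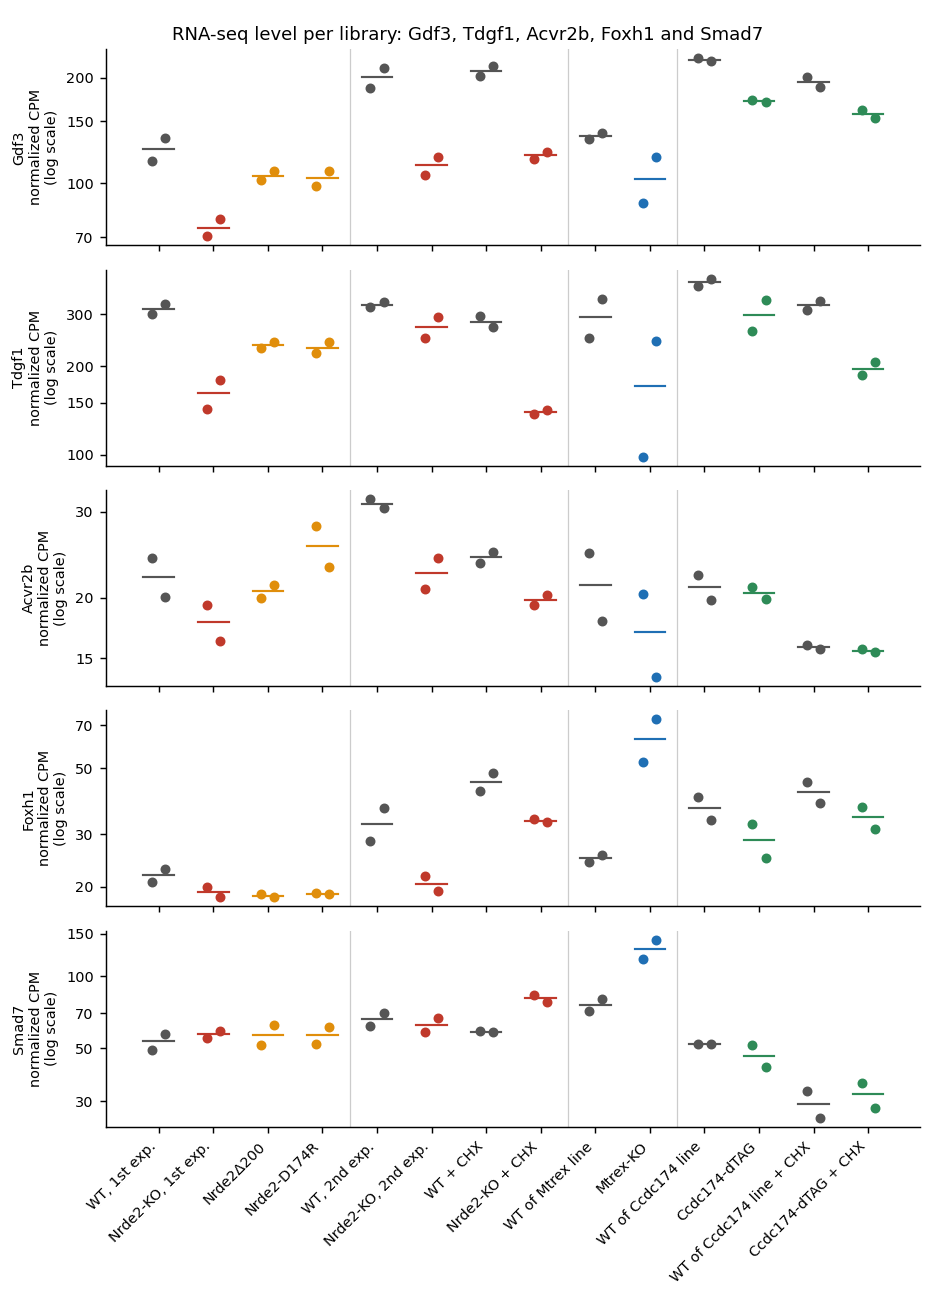
Normalized CPM (log scale) of *Gdf3*, *Tdgf1*, *Acvr2b*, *Foxh1* and *Smad7* in each RNA-seq library, by group. Points are libraries, bars are means of 2 libraries, and grey lines separate the experiments. *Foxh1* and *Smad7* reach their highest levels in *Mtrex*-KO (52.6 to 73.2 and 118 to 142), and *Tdgf1* its lowest group mean in *Nrde2*-KO with CHX (138 to 142).

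The *Mtrex* comparison asked what loss of the exosome helicase, which binds NRDE2, does to the same genes. Both *Lefty* genes fell and *Nodal* rose here as well, *Smad7* and *Foxh1* rose, and *Tdgf1* and *Gdf3* fell. In all, 7 of 8 members changed, where 55.9% of all genes changed. The 3 that rose stand beside 28.5% of all genes and the 4 that fell beside 27.4%.

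*Lefty2* had 568 and 595 normalized CPM in the uninduced line and 54.5 and 63.7 in *Mtrex*-KO, a 9.83-fold decrease (−3.30 on the log2 scale, SE 0.20, adjusted p = 3e-10). *Lefty1* had 26.9 and 25.3 against 8.37 and 3.68 (−2.18, SE 0.32, adjusted p = 9.9e-06). The *Mtrex*-KO libraries lay below the uninduced ones for both genes and differed from each other more than 2-fold for *Lefty1*, replicate 1 having the higher level. Without *Mtrex*-KO replicate 1 the *Lefty1* change was −2.75, and without replicate 2 it was −1.61. *Nodal* had 98.4 and 102 against 162 and 207 (0.87, SE 0.10, adjusted p = 9.2e-07). The ratio of the summed *Lefty* level to *Nodal*, per kb, was 4.95 to 4.97 in the uninduced line and 0.268 to 0.331 in *Mtrex*-KO.

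*Foxh1* rose from 24.2 and 25.6 to 52.6 and 73.2 normalized CPM (1.31 on the log2 scale, SE 0.16, adjusted p = 1.1e-06), and *Smad7* from 71.5 and 80.2 to 118 and 142 (0.77, SE 0.13, adjusted p = 6.1e-05). On the CPM as deposited, which lie 0.38 lower on the log2 scale at the median of all genes in this comparison, *Smad7* stood at 0.37 (adjusted p = 0.049). *Tdgf1* had 250 and 338 in the uninduced line and 98.4 and 243 in *Mtrex*-KO cells (−0.91, SE 0.26, adjusted p = 0.0052), and *Gdf3* 134 and 139 against 87.5 and 119 (−0.42, SE 0.12, adjusted p = 0.0053). The *Tdgf1* call was lost under 6 alternatives and the *Gdf3* call under 5, settings of the processing as well as left-out libraries. Replicate 1 of *Mtrex*-KO was the lower one for both, and without it the changes were −0.26 (adjusted p = 0.19) and −0.20 (adjusted p = 0.13). Neither call held without replicate 2 of the uninduced line (*Tdgf1* −0.69, adjusted p = 0.071, and *Gdf3* −0.39, adjusted p = 0.036), and *Gdf3* stood at −0.45 (adjusted p = 0.018) without its replicate 1. *Acvr2b* did not pass with all libraries (−0.33, adjusted p = 0.11) and stood at −0.61 (adjusted p = 0.0072) without *Mtrex*-KO replicate 1.

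The 2-cell-like markers summed to 4.73 to 15.3 normalized CPM in the uninduced line and 104 to 294 in *Mtrex*-KO, and all 8 tested rose. Markers of trophectoderm, the outer lineage of the blastocyst, summed to 88.0 to 123 and 505 to 523, with 5 of 7 tested higher. Of 14 naive markers 3 rose and 6 fell. Beside these counts, 28.5% of all genes rose and 27.4% fell. The part of these markers in the changes of the pathway genes was not tested.

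The effects of the 2 knockouts on the members were then set against each other in 1 model. Of the 8 members 3 differed, where 34.5% of all genes did. *Lefty2* fell further in *Mtrex*-KO than in *Nrde2*-KO of the second experiment, by −1.83 on the log2 scale (SE 0.28, adjusted p = 4.9e-05). *Foxh1*, which fell in *Nrde2*-KO and rose in *Mtrex*-KO, differed by 1.96 (SE 0.22, adjusted p = 2.1e-06) and *Smad7* by 0.84 (SE 0.19, adjusted p = 0.0013). The *Smad7* difference was 0.39 (adjusted p = 0.16) on the CPM as deposited. For *Lefty1* the difference was 0.28 (SE 0.45, adjusted p = 0.63), and for *Nodal* 0.45 (SE 0.14, adjusted p = 0.016). Without *Mtrex*-KO replicate 1, the differences of *Nodal* (0.63, adjusted p = 0.00067) and *Gdf3* (0.63, adjusted p = 0.0018) passed too, and without replicate 2 that of *Tdgf1* did (−1.30, adjusted p = 8.2e-05). The knockouts also differed in line and in the length of 4OHT treatment, which cannot be told apart from the gene lost. The paper reports that NRDE2 protein was reduced in *Mtrex*-KO, so that this knockout is not a loss of MTREX alone.

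**Figure D3:**
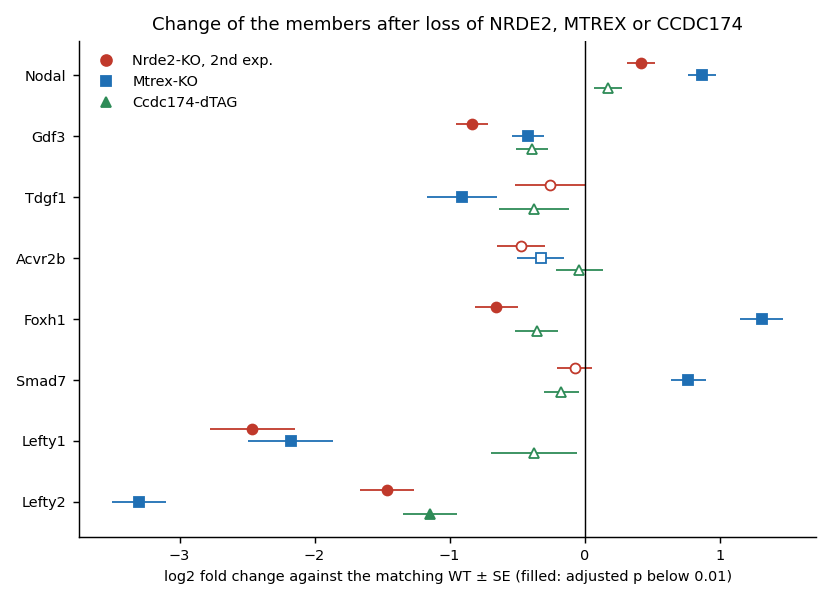
Log2 fold change of each member in *Nrde2*-KO of the second experiment, *Mtrex*-KO and *Ccdc174-dTAG*, with error bars of 1 standard error from the fit and filled symbols for an adjusted p below 0.01. *Lefty2* lies between −1.15 and −3.30 in these comparisons, while *Foxh1* lies at −0.65 in *Nrde2*-KO of the second experiment and at 1.31 in *Mtrex*-KO.

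Depletion of CCDC174 for 24 h was examined next, CCDC174 being a binding partner of NRDE2. At an unadjusted p below 0.05 there were 3 members, with no share of all genes given for that threshold. *Lefty2* was the only member that changed, 1 of 8, where 5.59% of all genes changed, 4.45% downward and 1.14% upward. It fell from 774 and 652 normalized CPM in the untreated line to 337 and 305 in *Ccdc174-dTAG*, without overlap (−1.15 on the log2 scale, SE 0.20, adjusted p = 0.00089). The call was lost without replicate 1 of the untreated line (−1.02, adjusted p = 0.023) and without *Ccdc174-dTAG* replicate 2 (−1.08, adjusted p = 0.017). *Lefty1* had 14.5 and 23.2 in the untreated line and 12.5 and 15.9 after depletion, overlapping ranges (−0.38, adjusted p = 0.5). *Nodal* had 126 and 139 against 149 and 149 (0.17, adjusted p = 0.31), and *Gdf3* 227 and 223 against 172 and 171 (−0.39, adjusted p = 0.041). The summed *Lefty* level was 3.97 to 5.05 times that of *Nodal* per kb in the untreated line and 1.77 to 1.91 times after depletion. The 2-cell-like markers summed to 3.30 to 5.83 normalized CPM before and 3.40 to 8.83 after depletion, overlapping ranges.

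The difference between the CCDC174 and NRDE2 effects had an unadjusted p below 0.05 for 2 members, with no share of all genes given for that threshold. It passed for none of the 8 members in limma, where it did for 1.07% of all genes. For *Lefty1* it was 2.09 (SE 0.45, adjusted p = 0.014), since *Lefty1* fell in *Nrde2*-KO and did not pass after CCDC174 depletion. DESeq2 called that difference (2.14, adjusted p = 0.0038) and edgeR did not, and without replicate 1 of WT of the second experiment it was 2.54 (adjusted p = 0.0071). For *Lefty2* the difference was 0.32 (SE 0.28, adjusted p = 0.62). The 2 losses also differed in line, in method and in length of treatment, which cannot be told apart from the protein lost.

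With CHX, which halts translation and with it the decay of RNAs that depends on translation, the libraries labelled *Nrde2*-KO were again compared with WT. Of the 8 members 6 fell and none rose, where 27.8% of all 15476 genes tested changed, 15.4% downward and 12.5% upward. *Lefty1* had 12.6 and 21.5 normalized CPM in WT with CHX and 4.38 and 4.64 in *Nrde2*-KO with CHX (−1.81 on the log2 scale, SE 0.23, adjusted p = 0.00015). *Lefty2* had 210 and 278 against 65.7 and 90.6 (−1.64, SE 0.17, adjusted p = 4.6e-05). The groups stayed apart for both genes. *Tdgf1*, which did not pass in the second experiment without CHX, had 295 and 271 against 138 and 142 (−1.01, SE 0.06, adjusted p = 1.7e-06), a 2.02-fold decrease. *Gdf3* fell by 0.80 on the log2 scale (SE 0.05, adjusted p = 3e-06).

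*Foxh1* (−0.43, adjusted p = 0.0065) and *Acvr2b* (−0.29, adjusted p = 0.009) passed as well, and both calls depended on single libraries and on the processing. Counting settings of the processing as well as left-out libraries, *Foxh1* lost its call under 4 alternatives and *Acvr2b* under 9. *Foxh1* lost it without WT replicate 2 (−0.33, adjusted p = 0.054), without *Nrde2*-KO replicate 1 (−0.44, adjusted p = 0.037) and without *Nrde2*-KO replicate 2 (−0.41, adjusted p = 0.043), and *Acvr2b* lost it without any 1 of the 4 libraries (−0.33 to −0.25). *Nodal* had 111 and 118 in WT with CHX and 147 and 127 in *Nrde2*-KO with CHX (0.26, SE 0.08, adjusted p = 0.019), higher in both libraries but short of the threshold, which it passed without *Nrde2*-KO replicate 2 (0.36, adjusted p = 0.0083). *Smad7* had 58.7 and 58.4 against 83.6 and 77.7 (0.46, SE 0.12, adjusted p = 0.011) and passed in edgeR and DESeq2. The 2-cell-like markers summed to 5.10 to 5.37 in WT with CHX and 57.01 to 62.7 in *Nrde2*-KO with CHX. All 6 tested rose, where 12.5% of all genes did.

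After CCDC174 depletion with CHX, 3 of 8 members fell and none rose, where 9.05% of all genes changed, 5.87% downward and 3.19% upward. *Lefty2* had 276 and 232 normalized CPM in the untreated line with CHX and 89.7 and 67.4 in *Ccdc174-dTAG* with CHX (−1.70 on the log2 scale, SE 0.17, adjusted p = 0.00014). *Tdgf1* fell from 310 and 333 to 186 and 206 (−0.71, SE 0.06, adjusted p = 6e-05), as it did in *Nrde2*-KO with CHX. *Gdf3* fell from 201 and 189 to 162 and 153 (−0.31, SE 0.05, adjusted p = 0.0035), a call that was lost without replicate 1 of the untreated line (−0.26, adjusted p = 0.029), without *Ccdc174-dTAG* replicate 1 (−0.35, adjusted p = 0.013) and without its replicate 2 (−0.27, adjusted p = 0.043). *Lefty1* had 3.76 and 2.91 against 1.95 and 1.46 (−0.88, adjusted p = 0.022) and passed in DESeq2 (−0.98, adjusted p = 0.0017). *Nodal* had 71.1 and 63.6 against 64.2 and 61.9, overlapping ranges (−0.09, adjusted p = 0.42).

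**Figure D4:**
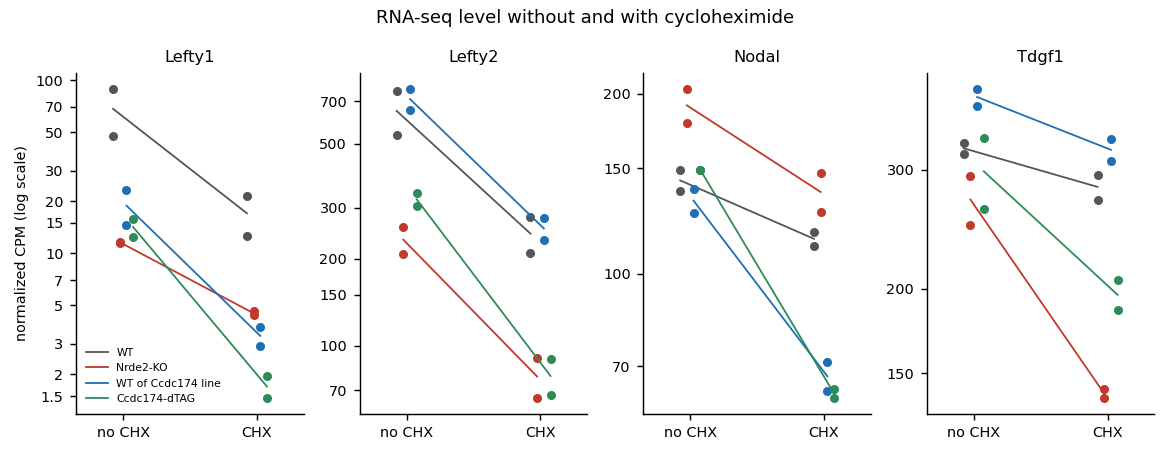
Normalized CPM (log scale) of *Lefty1*, *Lefty2*, *Nodal* and *Tdgf1* without and with CHX in WT and *Nrde2*-KO of the second experiment and in the *Ccdc174* line without and with dTAG-13. Points are libraries and lines join group means. *Lefty1* and *Lefty2* drop in all 4 backgrounds. *Tdgf1* lies at 249 to 294 without and 138 to 142 with CHX in *Nrde2*-KO, and at 317 to 329 and 271 to 295 in WT. The difference between these 2 *Tdgf1* responses did not pass in limma.

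Exposure to CHX for 4 h itself lowered *Lefty1*, *Lefty2* and *Nodal* in all 4 backgrounds. The log2 fold changes of *Lefty1* were −1.97 in WT, −1.32 in *Nrde2*-KO, −2.38 in the untreated *Ccdc174* line and −2.89 in *Ccdc174-dTAG*. Those of *Lefty2* were −1.40, −1.58, −1.49 and −2.04 in the same order. Those of *Nodal* were −0.32, −0.48, −0.98 and −1.24. All of these passed, with the weakest call that of *Nodal* in WT (adjusted p = 0.0051). That call was lost under 5 alternatives, at log2 fold changes of −0.36 to −0.11. Among them were the fits without WT replicate 1 (−0.27), without WT with CHX replicate 1 (−0.28) and without WT with CHX replicate 2 (−0.36). The call of *Lefty1* in *Nrde2*-KO was lost without *Nrde2*-KO with CHX replicate 1 (−1.28, adjusted p = 0.011). These changes are relative to the median gene. The CPM as deposited put the median gene 0.20 to 0.24 higher with CHX on the log2 scale.

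The members changed in number by 4 in WT (47.5% of all genes), 5 in *Nrde2*-KO (48.9%), 5 in the untreated *Ccdc174* line (49.5%) and 6 in *Ccdc174-dTAG* (50.4%). *Acvr2b* fell in all backgrounds but *Nrde2*-KO, by 0.36, 0.40 and 0.39, and these 3 calls were lost on the CPM as deposited (−0.15, −0.17 and −0.15). *Smad7* fell in both arms of the *Ccdc174* line (−0.84, adjusted p = 6.6e-05, and −0.54, adjusted p = 0.0026), the second call being lost without *Ccdc174-dTAG* replicate 1 (−0.39, adjusted p = 0.038) and without *Ccdc174-dTAG* with CHX replicate 2 (−0.37, adjusted p = 0.053). In WT it stood at −0.17 (adjusted p = 0.29) and in *Nrde2*-KO at 0.37 (adjusted p = 0.026), where it passed on the CPM as deposited (0.55, adjusted p = 0.0016) and with the compared groups alone (adjusted p = 0.0063). *Foxh1* rose in *Nrde2*-KO (0.70, adjusted p = 0.00088), a call lost without its replicate 2 (0.62, adjusted p = 0.011). In WT *Foxh1* stood at 0.48 (adjusted p = 0.013), and passed in DESeq2 (adjusted p = 0.007), on the CPM as deposited (0.68, adjusted p = 0.00069) and without WT replicate 2 (0.66, adjusted p = 0.0048). *Tdgf1* fell in *Nrde2*-KO (−0.95, adjusted p = 1.9e-06) and in *Ccdc174-dTAG* (−0.60, adjusted p = 0.00014), and stood at −0.19 (adjusted p = 0.12) in WT and −0.26 (adjusted p = 0.04) in the untreated *Ccdc174* line. *Gdf3* lay between −0.21 and 0.10 and passed in none of the backgrounds. Naive markers were also lower with CHX, at 4667 to 4801 in WT, and their part was not tested.

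Whether the response to CHX differed between the depleted cells and their controls was tested as an interaction. None of the 8 members passed in limma in the *Nrde2* experiment, where 0.515% of all genes did, or in the *Ccdc174* experiment, where 0.251% did. In each, 2 members had an unadjusted p below 0.05, a threshold for which no share of all genes is given. For *Tdgf1* in the *Nrde2* experiment the interaction was −0.76 (SE 0.15, adjusted p = 0.016), edgeR did not call it, and DESeq2 did (−0.79, adjusted p = 0.0001). For *Lefty1* it was 0.65 (SE 0.41, adjusted p = 0.5), and for *Lefty2* −0.18 (SE 0.28, adjusted p = 0.82). In the *Ccdc174* experiment the values of the 8 members lay between −0.55 (*Lefty2*, adjusted p = 0.56) and 0.30 (*Smad7*, adjusted p = 0.66).

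Ribo-seq, which counts ribosome-protected fragments, asked how ribosome occupancy of the genes changed. Both *Lefty* genes fell, *Nodal* rose, and *Gdf3* and *Acvr2b* fell in *Nrde2*-KO, 5 of 8 members, where 25.2% of all 13857 genes tested changed, 14.2% downward and 11% upward. *Nodal* had 167 and 182 normalized CPM in WT and 469 and 459 in *Nrde2*-KO, a 2.66-fold rise (1.41 on the log2 scale, SE 0.08, adjusted p = 5.1e-11). *Lefty2* had 275 and 276 in WT and 29.0 and 28.8 in *Nrde2*-KO, a 9.46-fold decrease (−3.24, SE 0.08, adjusted p = 8.5e-16). *Lefty1* had 12.5 and 13.3, from 96 and 100 reads, in WT and 1.44 and 2.08, from 8 and 16 reads, in *Nrde2*-KO (−2.73, SE 0.25, adjusted p = 5.9e-08). For all 3 genes the replicates lay close together relative to the distance between WT and *Nrde2*-KO. Per kb, the ratio of the summed *Lefty* level to *Nodal* was 1.30 to 1.41 in WT and 0.0532 to 0.0557 in *Nrde2*-KO.

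*Gdf3* fell from 207 and 215 to 119 and 121 normalized CPM of Ribo-seq (−0.81 on the log2 scale, SE 0.08, adjusted p = 8.6e-08). *Acvr2b* fell from 16.6 and 17.0 to 10.8 and 11.97 (−0.55, SE 0.15, adjusted p = 0.0056), a call lost without WT replicate 1 (−0.57, adjusted p = 0.019), without WT replicate 2 (−0.53, adjusted p = 0.03) and without *Nrde2*-KO replicate 1 (−0.48, adjusted p = 0.035). *Tdgf1* had 152 and 126 against 118 and 113 (−0.26, adjusted p = 0.029), and passed without WT replicate 2 (−0.39, adjusted p = 0.0004). *Foxh1* had 20.9 and 22.96 against 16.9 and 16.1 (−0.40, adjusted p = 0.018). *Smad7* overlapped between WT and *Nrde2*-KO (0.03, adjusted p = 0.84).

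**Figure D5:**
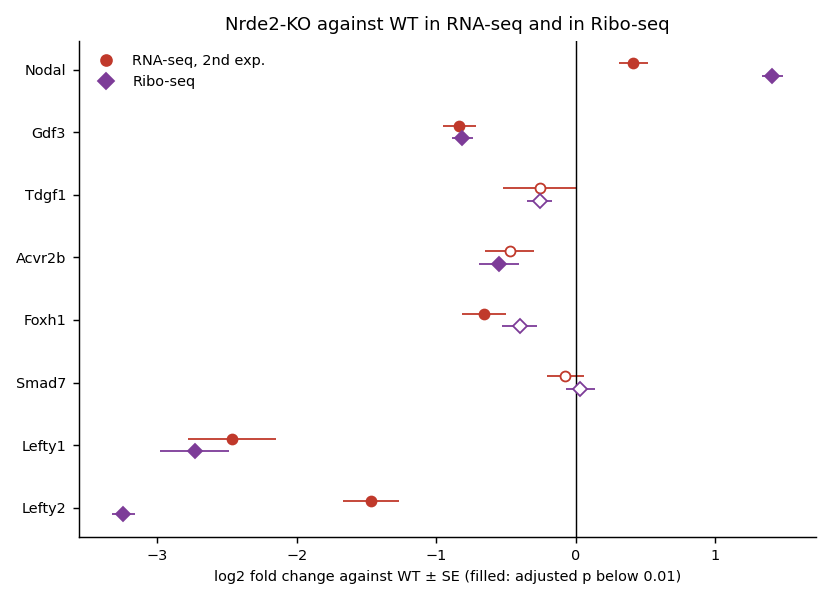
RNA-seq of the second experiment and Ribo-seq of *Nrde2*-KO against WT for the 8 members, as log2 fold changes with error bars of 1 standard error and filled symbols for an adjusted p below 0.01. *Lefty2* lies at −1.47 in RNA-seq and −3.24 in Ribo-seq, *Nodal* at 0.41 and 1.41, and each other member differs by at most 0.27 between the assays.

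For 2 members the Ribo-seq effect differed from the RNA-seq effect of the second experiment, where 4.38% of all 12719 genes tested did. The decrease of *Lefty2* was larger in Ribo-seq, by −1.78 on the log2 scale (SE 0.19, adjusted p = 0.00026), and so was the rise of *Nodal*, by 1.00 (SE 0.13, adjusted p = 0.00074). With the RNA-seq of the first experiment, given without a test, in place of that of the second, the differences were −1.42 for *Lefty2*, 0.85 for *Nodal* and 0.70 for *Tdgf1*. Without WT Ribo-seq replicate 1 the *Nodal* difference was 0.94 (adjusted p = 0.01) and no longer passed. Against the second experiment *Lefty1* differed by −0.27 (SE 0.34, adjusted p = 0.64) and *Tdgf1* by 0.00 (SE 0.14). The labels do not tie the libraries of the assays to the same cultures, so that a difference between assays cannot be told apart from one between cultures.

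The wider pathway was followed in the same comparisons. Of 51 further genes of the Nodal, activin and BMP pathways, listed with the results of this series already known, 43 were tested in RNA-seq without CHX. In *Nrde2*-KO of the second experiment 2 rose and 3 fell, where 7.44% and 11.3% of all genes did, at a median log2 fold change of −0.04 against 0.01 over all genes. Among those that fell was *Bmp4*, a BMP ligand (−1.74, SE 0.26, adjusted p = 7.5e-05), and a receptor gene and a transducer gene were those that rose. In *Ccdc174-dTAG*, *Bmp4* was the only 1 of the 43 that changed (−1.33, SE 0.26, adjusted p = 0.0022). Between *Nrde2*Δ*200* and *Nrde2-D174R* 1 of the 43 differed.

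In *Mtrex*-KO, 18 of the 43 rose and 8 fell, where 28.5% and 27.4% of all genes did, at a median of 0.28 against 0.00 over all genes. Of 9 genes of the BMP branch 6 rose and none fell, among them *Id2* (3.95, SE 0.22, adjusted p = 9.6e-11) and *Id3* (2.32, SE 0.51, adjusted p = 0.00064), which encode inhibitors of basic helix-loop-helix factors. Of 6 mesendoderm targets 3 fell and none rose, among them *Gsc* (−2.28, SE 0.24, adjusted p = 2.4e-07), a homeobox gene of the organizer. *Gsc* was near the floor, at 2.13 and 2.91 normalized CPM in the uninduced line and 0.314 and 0.312 in *Mtrex*-KO. With CHX, 6 of 44 rose and 4 fell in *Nrde2*-KO (12.5% and 15.4% of all genes), *Foxa2* by the most (−1.34, SE 0.23, adjusted p = 0.00097), and 1 rose and 3 fell in *Ccdc174-dTAG* (3.19% and 5.87%). In Ribo-seq, 7 of 42 rose and 3 fell (11% and 14.2% of all genes), among them *Tgfbr3*, a co-receptor (1.57, SE 0.12, adjusted p = 1e-08), *Fst*, which encodes the activin antagonist follistatin (1.31, SE 0.17, adjusted p = 4.4e-06), and *Bmp4* (−1.04, SE 0.24, adjusted p = 0.002).

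Across the 14 RNA-seq group means, which share lines, treatments and depth, *Lefty1* correlated with *Lefty2* at a Pearson r of 0.81 and with *Acvr2b* at 0.86, and *Lefty2* with *Tdgf1* at 0.91. *Nodal* had an r of 0.01 with *Lefty2* and its highest r among the members with *Smad7* (0.72). Among 15227 genes, the 5 with the pattern most like that of *Lefty1* were *Ppp4c*, *Uchl4*, *Sumo3*, *Eif3l* and *Lmnb1* (r of 0.94 to 0.95), and for *Nodal* they were *Paip1*, *Eny2*, *Hif1an*, *Gm12688* and *Wdr45* (0.91 to 0.93). These are descriptions over 14 points, and no member was among the 5 of either gene.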

How the data were processed

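The authors aligned reads to the mouse genome with STAR, counted uniquely mapped reads of the correct strand with featureCounts in the genes of GENCODE M23, and deposited CPM values, relative to a total larger than the reads in genes. Positions are those of GRCm38, with symbols from GENCODE M21, the release at hand. All values above 0 (100%, within 0.1) were whole numbers of reads after recovery of the library totals, so depth could be read from the tables.

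For the main test each library's deposited CPM were scaled with a median-of-ratios factor (0.681 to 1.14 in RNA-seq), 0.25 was added, and log2 values of genes averaging 0.5 CPM or more were fitted with limma 3.58.1 (R 4.3.3) and Benjamini-Hochberg adjustment over all genes tested. A gene changed at an adjusted p below 0.01 and was called differentially expressed with a log2 fold change beyond 1 in size as well, the thresholds of the methods. The libraries without CHX, those with CHX, the Ribo-seq libraries, the 16 libraries of the CHX experiments and the 8 of the comparison of assays each formed 1 fit. P-values measure the spread between 2 libraries per group, which may be technical, and groups share 1 spread estimate in each fit.

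Whole-read counts recovered from the CPM were tested with edgeR 4.0.16 and DESeq2 1.42.0 as alternatives. In the second *Nrde2*-KO experiment limma called 2786 changed genes, edgeR 2748 and DESeq2 3133. Other alternatives were the pseudocount (0.1 or 1), the filter (none, or a mean of 1 CPM), the CPM as deposited, the replicate number as a block, the compared groups alone and each library left out. The fits were tested on simulated data.

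The members and the gene lists were chosen with earlier results of these data known, so list counts are descriptions. Named beyond the 8 members were up to 3 pathway genes per comparison of a knockout, depletion or mutant with the largest fold change among those differentially expressed, the 5 genes most correlated with *Lefty1* and with *Nodal* over 14 group means, and the targeted genes. Some genes that this rule names are not reported here. The 16 BCLIP-seq libraries were not analysed here.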

Additional observations from a re-analysis of the deposited data

Results flagged for a closer look

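For 3 members the effect of *Mtrex*-KO differed from that of *Nrde2*-KO of the second experiment in the test of the difference itself (limma, adjusted over all genes), 3 of 8 where 34.5% of all genes differed. The difference was −1.83 on the log2 scale for *Lefty2* (adjusted p = 4.9e-05), 1.96 for *Foxh1* (adjusted p = 2.1e-06) and 0.84 for *Smad7* (adjusted p = 0.0013). *Lefty2* and *Foxh1* passed under every alternative tried, and *Smad7* under all but the CPM as deposited, where it stood at 0.39. Groups of 2 libraries are too small for a test of single outlying libraries.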

How the results depend on the processing

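Of 52 member values past the threshold, 33 stayed past it under every alternative tried and 19 lost it under at least 1 (74 of 691 alternative values), with none changing sign. Of the 76 values not past it, 64 of 1125 alternative values had the other sign and 32 were past it. The number of changed members in the second *Nrde2*-KO experiment was 5, and 3 without a filter on low values or on the CPM as deposited. In *Ccdc174-dTAG* it was 1, and 0 without a filter. Between *Nrde2*Δ*200* and *Nrde2-D174R* it was 0, and 1 with the compared groups alone. For the CCDC174 effect minus the NRDE2 effect it was 0, and 1 (*Lefty1*) on the CPM as deposited and in DESeq2. For the CHX interaction in the *Nrde2* experiment it was 0, and 1 (*Tdgf1*) in DESeq2. With 1 library left out in turn, the counts ranged from 3 to 4 in the second *Nrde2*-KO experiment, from 0 to 1 in *Ccdc174-dTAG*, from 3 to 5 for the *Mtrex* effect minus the *Nrde2* effect, from 0 to 1 for the CCDC174 effect minus the NRDE2 effect, from 2 to 4 for CHX in WT, and from 1 to 2 for Ribo-seq minus RNA-seq, the lone library then being taken to vary like the others. Same-numbered libraries are not tied to 1 culture by the labels, and the correlations of their deviations ran from −0.036 to 0.412 over 2 pairs. With the replicate block the count in *Ccdc174-dTAG* was 2, that of the CHX interaction in the *Nrde2* experiment 1 and that of Ribo-seq 6, and elsewhere the counts were those without the block. The CPM as deposited shifted the median gene by −0.38 in *Mtrex*-KO, −0.41 in its difference from *Nrde2*-KO, 0.15 in Ribo-seq, 0.11 in Ribo-seq minus RNA-seq and 0.20 to 0.24 with CHX. *Lefty1* in Ribo-seq of *Nrde2*-KO rests on 8 and 16 reads.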
